A study of Mus musculus with 11 samples.

Results

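SMC3 was mapped in mouse embryonic fibroblasts (MEFs) with and without SA1, and the comparison described here is that of the SA1-null SMC3 peak list with the wild-type SMC3 peak list. The members are all intervals of those 2 lists, 15564 peaks from wild-type cells and 34802 from SA1-null cells, together 50366 of the 162241 peaks in the 8 antibody lists of the series. Both groups were untreated MEFs of stage E12.5 and of the C57BL/6 x 129 Sv background, grown in DMEM with 20% serum. One group was labelled WT and the other SA1-null, and the same anti-SMC3 immunoprecipitation was followed by sequencing (ChIP-seq) in each. The labels state neither how SA1 was inactivated nor how many embryos or cultures stood behind a library. Each side was 1 library, and both were called against the same input DNA, which was pooled over the genotypes. There was therefore no spread between replicates and no test between the genotypes was possible. All intervals printed below are 95% Wilson or exact binomial intervals, which cover counting error over peaks only.

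SMC3 is one of the 2 long coiled-coil ATPases of cohesin, the ring that holds sister chromatids together and extrudes chromatin loops. It pairs with SMC1 at the hinge, and a kleisin subunit closes the ring between the 2 ATPase heads. In somatic vertebrate cells the kleisin carries either SA1 or SA2, so SMC3 marks rings of both kinds, whereas an SA protein marks only its own. In fibroblasts, as in other interphase cells, cohesin collects at sites of the insulator protein CTCF, and SA1 and SA2 rings differ in how they are distributed and how long they stay on DNA.

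The SA1 antibody gave 26602 peaks in wild-type cells but 177 in SA1-null cells. These were other libraries, so the genotype labels of the SMC3 libraries themselves were not checked. The other lists used below as a second readout at SMC3 peaks were wild-type SA1, SA2 of wild-type cells (7741 peaks), SA2 of SA1-null cells (6352), SMC1 of wild-type cells (24000) and SMC1 of SA1-null cells (47003, from 2 replicates pooled). Read depth is unknown, and a list grows with depth and with enrichment. An SMC3 peak without a partner in another list therefore shows only that no peak was called there.

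SMC3 gave more and wider peaks in SA1-null than in wild-type cells. The SA1-null list held 2.24 times as many peaks (interval 2.19 to 2.28). It covered 23.7 Mb of the genome (mm9), against 8.79 Mb for the wild-type list, a ratio of 2.70. The median SMC3 peak measured 652 bp without SA1 and 563 bp with it. The middle 50% of widths ran from 546 to 758 bp in SA1-null cells and from 477 to 642 bp in wild-type cells, so that the distributions overlapped over most of their range. The difference was largest in the upper tail. Peaks wider than 1000 bp made up 6.62% of the SA1-null list (2305 peaks) and 0.777% of the wild-type list (121 peaks). The median gap from one SMC3 peak to the next was 26.1 kb in SA1-null and 64.3 kb in wild-type cells.

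**Figure D1:**
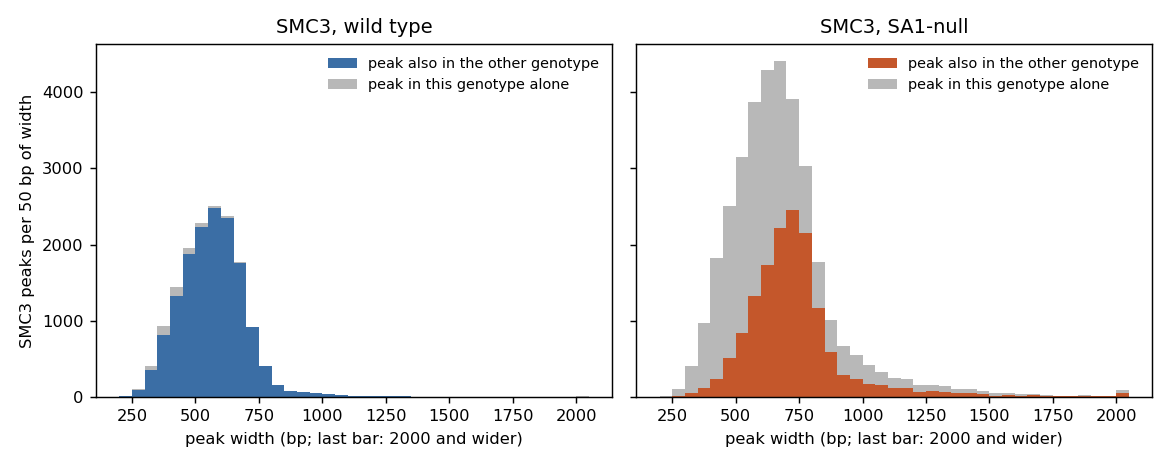
Number of SMC3 peaks (vertical axis) by peak width in bp (horizontal axis, bars of 50 bp) in the wild-type list (left) and the SA1-null list (right). The coloured part of a bar is peaks that overlap a peak of the other genotype, and the grey part is peaks of that genotype alone, 506 on the left and 19811 on the right.

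Almost every wild-type SMC3 position was also called without SA1, and the larger share of the full SA1-null list lay elsewhere. When overlapping peaks of both lists were joined, they formed 35287 positions. Of these, 42.4% (14970) were called in both genotypes, 56.1% (19811) in SA1-null cells alone and 1.43% (506) in wild-type cells alone. Counted over peaks, 96.7% (interval 96.5 to 97.0%) of wild-type and 43.1% (interval 42.6 to 43.6%) of SA1-null peaks had a partner. Counted over bases, the 8.25 Mb that lay in both lists were 93.8% of the wild-type and 34.8% of the SA1-null SMC3 sequence. With the SA1-null list shortened to its 15564 widest peaks, the partnered share was 59.5% of wild-type and 59.0% of SA1-null peaks, so that the larger share of the shortened SA1-null list had a wild-type partner.

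Where SMC3 peaks of the 2 genotypes overlapped, the SA1-null peak usually enclosed the wild-type one. Of 15079 overlapping pairs, 14871 joined 1 wild-type peak to 1 SA1-null peak. Their centres were 41.5 bp apart in the median, and 86.8% lay within 100 bp of each other, a distance that overlap itself limits. The wild-type peak was wholly inside the SA1-null peak in 9800 pairs (65.9%), and the reverse held in 600 (4.03%). The SA1-null peak was the wider one in 12976 pairs (87.3%, interval 86.7 to 87.8%). The median ratio of widths was 1.25, and the middle 50% of ratios ran from 1.10 to 1.46. Ratios above 2 were found in 609 pairs (4.10%) and ratios below 0.5 in 2.

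The other ring subunit did not widen at these positions. At 13980 positions SMC3 and SMC1 each had a single peak in each genotype, so the change could be read for both. There, the median SMC3 width went from 570 bp in wild-type to 711 bp in SA1-null cells, and the median SMC1 width from 619 to 614 bp. The width ratio had a median of 1.25 for SMC3, with a middle 50% from 1.10 to 1.45. For SMC1 it was 1, with a middle 50% from 0.867 to 1.16. SMC3 was wider in SA1-null cells at 87.3% of the positions and SMC1 at 50.3% (interval 49.5 to 51.1%). The SMC3 ratio was above the SMC1 ratio at 10878 positions (77.8%, interval 77.1 to 78.5%). Both comparisons were called against the same input, but the SA1-null SMC1 list pooled 2 replicates and the SMC3 list did not. The part that this, or depth, had in the difference was not tested.

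**Figure D2:**
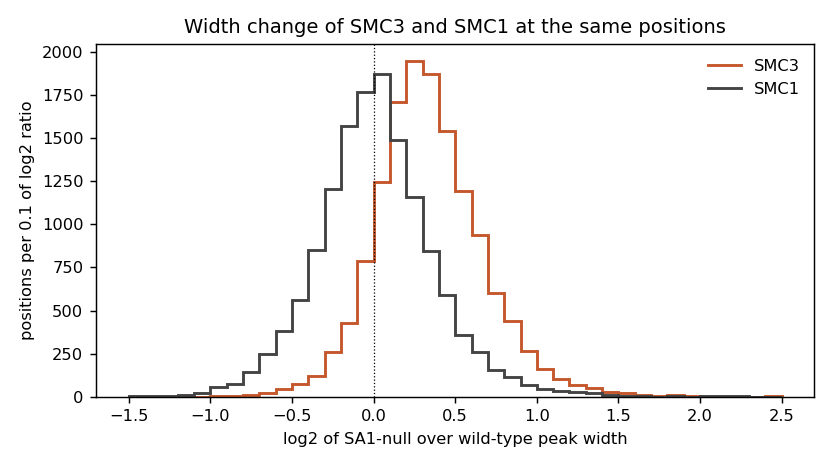
Distribution of the log2 ratio of SA1-null to wild-type peak width (horizontal axis, bins of 0.1) over the 13980 positions with single SMC3 and SMC1 peaks in both genotypes, for SMC3 and for SMC1. Values beyond the ends of the axis are counted in the end bins; the SMC1 curve is centred near 0 (median ratio 1) and the SMC3 curve lies to its right (median ratio 1.25).

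The widening was found with every combination of SA subunits at the shared positions. Pairs with SA1 and with SA2 in both genotypes went from 612 to 749 bp in median SMC3 width, with a median ratio of 1.23 over 2407 pairs. The 2226 pairs with SA1 where SA2 was called in SA1-null cells alone also had a median ratio of 1.23. The 1679 pairs with SA1 where SA2 was called in wild-type cells alone had 1.23 as well. At the 6703 pairs with SA1 and no SA2 the ratio was 1.25, from 547 to 691 bp. The 1785 pairs with neither SA protein had the narrowest wild-type peaks, 505 bp in the median, and a ratio of 1.32, from 505 to 665 bp. The share of pairs that were wider in SA1-null cells lay between 86.6% and 88.0% in these 5 groups, and it was 91.5% (interval 82.8 to 96.1%) in the 71 pairs with SA2 and no SA1.

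A few SMC3 positions differed far more in extent. The pairs with the largest ratios were at chr4:135699740-135700150, chr19:5792910-5793421 and chr1:71699949-71700357 (mm9 throughout, with the wild-type peak given for shared pairs). Their wild-type peaks were 411, 512 and 409 bp wide and their SA1-null peaks 4332, 5365 and 4270 bp. The next were at chr8:129258700-129259088, with 389 and 2290 bp, and chr1:135974038-135974445, with 408 and 2380 bp. SMC1 was called in both genotypes at all 5, and a wild-type SA1 peak was present at the one on chromosome 19 and at the first one on chromosome 1. At the other end, the smallest ratio was 0.462 at chr13:118392550-118393421, where an 872 bp wild-type peak met a 403 bp SA1-null peak and no other subunit had a peak. The next 4 ratios lay between 0.485 and 0.523.

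Broad SA1-null peaks also joined wild-type peaks that were separate. This was so for 85 SA1-null peaks, whereas 21 wild-type peaks spanned several SA1-null peaks. The widest SMC3 peak of either list, 8986 bp at chr2:117935883-117944868 in SA1-null cells, covered 4 wild-type peaks of 667, 1519, 891 and 840 bp. The next such peak, 7632 bp at chr19:5838001-5845632, covered 3 of 760, 1014 and 549 bp. The positions with the highest mean of their 2 width ranks were at chr1:164154281-164156099, chr10:17441424-17443512, chr1:90183263-90185163, chr5:143663190-143664612 and chr16:15294228-15295604. Their wild-type peaks were 1819, 2089, 1901, 1423 and 1377 bp wide, and their SA1-null peaks 4211, 2174, 1973, 2002 and 2023 bp in that order. SMC1 was called in both genotypes at all 5, and SA1 at all but the one on chromosome 5.

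Whether an SA1-null SMC3 peak had a wild-type partner varied with its width, and not in one direction. In 10 classes of equal size, the partnered share was 435 of 3481 peaks in the narrowest (median 408 bp) and rose with each class to 70% in the eighth (median 758 bp). It was 64.4% in the next class and 45.3% (interval 43.7 to 47.0%) in the widest (median 1071 bp). Wild-type SA1 peaks followed a similar course over these classes, from 38.1% of the narrowest through 74.6% of the eighth to 50.2% of the widest. Among unpartnered peaks alone the course was flatter. There, SA1 was at 32.5% in the narrowest, 41.2% in the sixth, 32.5% in the eighth and 23.9% in the widest class. SMC1 of SA1-null cells did not fall again in the broad classes. It was present at 66.7% of the narrowest, 96.8% of the eighth and 96.6% of the widest SMC3 peaks. Among wild-type SMC3 peaks the partnered share went from 87.8% in the narrowest class (median 366 bp) to between 98.7% and 99.3% in the 5 widest.

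**Figure D3:**
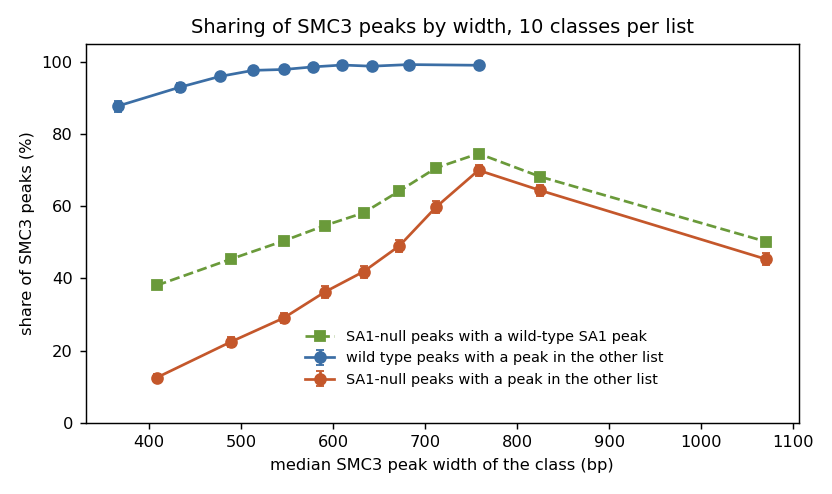
Share of SMC3 peaks in percent (vertical axis) in 10 width classes of each list, placed at the median width of the class in bp (horizontal axis), with 95% Wilson intervals on the circles. Wild-type peaks with an SA1-null partner start at 87.8%; SA1-null peaks with a wild-type partner reach 70% in the eighth class and 45.3% in the widest, and the dashed line gives SA1-null peaks with a wild-type SA1 peak.

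SMC3 peaks of SA1-null cells alone lay at positions with SMC1 in both genotypes, at positions with SMC1 in SA1-null cells alone, and at positions without SMC1. Of the 19811, 6804 (34.3%, interval 33.7 to 35.0%) had an SMC1 peak in both genotypes, so that of the ring only the SMC3 call differed. A further 9197 (46.4%, interval 45.7 to 47.1%) had SMC1 in SA1-null cells alone. SMC1 in wild-type cells alone accompanied 382 (1.93%). No SMC1 list had a peak at the remaining 3428. Wild-type SA1 was present at 55.5% of those with wild-type SMC1, at 26.2% (interval 25.3 to 27.1%) of those with SA1-null SMC1 alone and at 14.0% (interval 12.9 to 15.2%) of those with no SMC1. The SA1 share was thus highest with wild-type SMC1, though 2410 and 479 peaks of the other 2 groups also had SA1.

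No wild-type antibody list had a peak at 9693 of these SMC3 peaks (48.9%). SMC1 of SA1-null cells was called at 6752 of the 9693 (69.7%, interval 68.7 to 70.6%). SA2 of SA1-null cells, the SA protein left in these cells, was called at 6 (0.0619%, interval 0.0284 to 0.135%). At the 10118 with a wild-type peak of some other subunit, the shares were 91.4% for SMC1 and 7.63% (interval 7.13 to 8.16%) for SA2. At the SA1-null SMC3 peaks with a wild-type SMC3 partner they were 99.4% and 31.5%. The SA2 share therefore differed between these 3 sets by more than the counting intervals, with a list of 6352 SA2 peaks against 34802 for SMC3. The set of 9693 excludes wild-type SA1, SA2 and SMC1 peaks by definition. Its low SA2 share therefore follows in part from the selection, and the part beyond it was not tested. Among SA1-null-alone peaks with SMC1 in both genotypes and no wild-type SA2, SA1-null SA2 was called at 328 with SA1 and not at 2930. Without SA1, it was called at 6 and not at 2885.

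The most frequent combination at SMC3 peaks of SA1-null cells alone was SA1-null SMC1 and nothing else, at 6746 peaks (34.1%) with a median SMC3 width of 622 bp. None of the 5 other lists had a peak at 2941 (14.8%), and these were narrower, with a median of 519 bp. SMC1 of both genotypes with SA1 and no SA2 was found at 2930 (14.8%), and SMC1 of both genotypes with no SA protein at 2885 (14.6%), with median widths of 622 and 652 bp. SA1-null SMC1 with SA1 and no SA2 was found at 2078 (10.5%), and all 5 lists at 242 (1.22%). Shared SMC3 peaks were composed otherwise. Among the 14991 SA1-null peaks with a partner, 6449 (43.0%) had SMC1 of both genotypes with SA1 and no SA2, 2421 (16.1%) had all 5 lists and 29 (0.193%) had none.

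**Figure D4:**
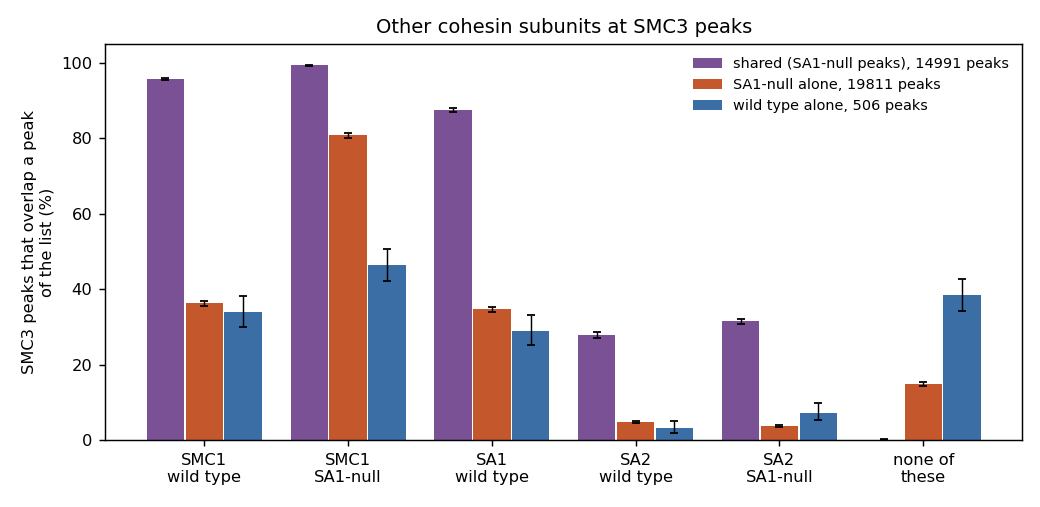
Share of SMC3 peaks in percent (vertical axis) that overlap a peak of each other list (horizontal axis), with 95% Wilson intervals, for SA1-null peaks with a wild-type partner and for peaks of SA1-null or wild-type cells alone. SA1-null SMC1 is at 99.4%, 80.8% and 46.4% of the 3 classes in that order, and wild-type SA1 at 87.5%, 34.7% and 29.1%.

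Broad SMC3 peaks of SA1-null cells alone carried SMC1 almost always and SA1 seldom. Among 1061 such peaks wider than 1000 and up to 1500 bp, SMC1 of SA1-null cells was found at 95% (interval 93.5 to 96.2%) and SA1 of wild-type cells at 24.0% (interval 21.6 to 26.7%). For peaks up to 500 bp these shares were 65.7% and 33.2%. Partnered SMC3 peaks of the broad range had SA1 at 81.5%. In the 172 unpartnered peaks above 1500 bp the SA1 share was 40.1% (interval 33.1 to 47.6%), and a wild-type SMC1 peak was present at 62.2%. SMC1 peaks were broad at the same places. In the widest class of unpartnered SMC3 peaks (median 1062 bp) the accompanying single SMC1 peak of SA1-null cells was 928 bp wide in the median, and in the narrowest class (407 bp) it was 433 bp.

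The widest SMC3 peaks of SA1-null cells alone were at chr14:47004380-47008867 (4488 bp), chr1:64165310-64169408 (4099 bp), chr6:117130075-117134137 (4063 bp), chr10:36857913-36861771 (3859 bp) and chr13:5859407-5863264 (3858 bp). All 5 had an SA1-null SMC1 peak, and none had an SA2 peak of either genotype. The one on chromosome 6 had no wild-type peak of any antibody, and its SA1-null SMC1 peak was 3036 bp wide. The other 4 had wild-type SMC1 and SA1 peaks, the SMC1 peaks being 1605, 1339, 972 and 1612 bp wide in wild-type cells and 2893, 2041, 3464 and 1890 bp wide in SA1-null cells, in the order given. The nearest wild-type SMC3 peak was between 5.74 kb (chromosome 6) and 601 kb (chromosome 13) away.

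Peaks of the other subunits were themselves narrower where SMC3 was called in SA1-null cells alone. Wild-type SMC1 peaks had a median width of 620 bp where SMC3 was called in both genotypes, 526 bp where it was called in SA1-null cells alone and 462 bp where it was called in neither. For wild-type SA1 peaks the medians were 585, 515 and 449 bp in the same order, and for wild-type SA2 peaks 500, 461 and 431 bp. The order was the same in the SA1-null SMC1 list, with 612, 541 and 444 bp.

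Read from the positions of the other subunits, the SA1-null SMC3 list covered more of every list. Of the 24000 wild-type SMC1 peaks, SMC3 was called at 60.7% in wild-type cells and at 90.2% in SA1-null cells, and at 173 peaks (0.721%) in wild-type cells alone. Wild-type SA1 positions had SMC3 in SA1-null cells alone at 6966 of 26602 (26.2%), in wild-type cells alone at 146 (0.549%) and in neither at 6313 (23.7%). In percentage points, the gap between the genotypes was wider where SA1 peaks were narrow. In the narrowest 25% of SA1 peaks SMC3 was called at 27.9% with SA1 present and 56.3% in SA1-null cells, and in the widest 25% at 70.8% and 91.4%. The widest 25% thus left less room for a gap. Of SA1 peaks without wild-type SMC3, 1933 of the narrowest 25% had SMC3 in SA1-null cells and 2865 had not. For the widest 25% these numbers were 1394 and 547, the larger called part.

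SA2 divided the SA1 positions further. Where SA2 was called in both genotypes, SMC3 was found at 85.9% of 2850 SA1 positions with SA1 present and at 96.7% in its absence. Where SA2 was called in SA1-null cells alone (2909), the SMC3 shares were 77.8% and 92.8%, and where it was called in wild-type cells alone (2503) they were 67.9% and 91.1%. The 18340 SA1 positions without SA2 had 37.7% and 67.6%. SMC3 in SA1-null cells alone was thus called at 11.1%, 15.6%, 23.5% and 30.6% of these groups. SA1 peak widths fell in the same order, with medians of 642, 622, 571 and 498 bp, and their part in these shares was not tested. A share called in SA1-null cells alone cannot exceed the share without wild-type SMC3, which differed between the groups. At positions without wild-type SMC3, it was called in SA1-null cells at 317, 453, 588 and 5608, in the same group order. It was not called at 86, 192, 215 and 5820, so the called part was smallest in the group without SA2.

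The 506 SMC3 peaks of wild-type cells alone were narrow, and fewer of them had another subunit. Their median width was 429 bp, against 566 bp for wild-type SMC3 peaks with a partner. None of the 5 other lists had a peak at 195 (38.5%, interval 34.4 to 42.8%), but at only 29 (0.193%) of the partnered peaks. Wild-type SA1 was present at 147 (29.1%, interval 25.3 to 33.2%) and wild-type SMC1 at 172 (34.0%, interval 30.0 to 38.2%). At these wild-type SMC3 peaks, SMC1 was called more often in SA1-null cells, at 235 (46.4%, interval 42.1 to 50.8%), from the list that was the longer one. Of the 172 with wild-type SMC1, 123 (71.5%, interval 64.4 to 77.7%) also had SMC1 in SA1-null cells. Neither ring subunit was called in SA1-null cells at 271 of the 506, and 49 of these had wild-type SMC1, 0.336% of all 14586 wild-type SMC3 peaks with SMC1.

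Both SMC1 and SMC3 were called in SA1-null cells too at 98.4% (interval 98.2 to 98.6%) of those 14586 wild-type peaks, and SMC3 without SMC1 at 55 of them. Of the 978 wild-type SMC3 peaks without wild-type SMC1, 600 (61.3%) had both subunits in SA1-null cells and 222 (22.7%, interval 20.2 to 25.4%) had neither. SA1 was present at 88.9% of the peaks with both calls in both genotypes, at 56.7% of the 600 and at 9.46% of the 222. With only the widest 50% of each SMC3 list, the shares with SA1 and with SMC1 among unpartnered wild-type peaks were 85.9% and 94.1%. Most of these peaks had an SA1-null partner in the full list that the setting itself removed, since the unpartnered number was 1569 in place of 506.

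Background intervals were few, and their share was highest in this class. Intervals that the input libraries or the SA1 antibody in SA1-null cells had given were found at 15 of the 506 wild-type-alone peaks (2.96%, interval 1.80 to 4.83%), at 7 of the 15058 with a partner and at 14 of the 19811 of SA1-null cells alone. All 15 overlapped a peak of the SA1 antibody in SA1-null cells, and 13 of them also an interval of the SA set input. That SA1 list met 0 of the 15058 and 0 of the 19811, so their 7 and 14 came from the input lists. Of the 15, 10 were on chromosome X. The 5 widest peaks of the class were at chrX:121306948-121309106 (2159 bp), chr5:105356451-105357672 (1222 bp), chr9:117101614-117102595 (982 bp), chr16:25385291-25386256 (966 bp) and chr9:13422379-13423297 (919 bp). The first, the second and the last of these overlapped a background interval. An SA2 peak of SA1-null cells was also called at the first, and a wild-type SMC1 peak at the second. The other 2 had SMC1 peaks in both genotypes, of 552 and 911 bp on chromosome 9 and of 715 and 328 bp on chromosome 16 in wild-type and SA1-null cells in that order. None of the 5 had a wild-type SA1 peak. Just missed overlaps were rare in the class, with 22 of 506 peaks (4.35%) within 500 bp of an SA1-null SMC3 peak, and the median distance was 19.8 kb.

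The SMC3 peaks of SA1-null cells alone had a median distance of 32.2 kb to the nearest wild-type SMC3 peak, and 733 (3.70%) lay within 1 kb. Wild-type SMC3 peaks with a partner were 27.7 kb from the nearest other wild-type SMC3 peak in the median. Up to 10 kb from a wild-type SMC3 peak lay 4653 of the SA1-null-alone peaks (23.5%), from 10 to 100 kb away lay 11548, and farther away lay 3610. Median widths in these 3 classes were 593, 605 and 605 bp in that order. SA1-null SMC1 was present at 81.5%, 80.6% and 80.3%. Wild-type SA1 was present at 35.9% (interval 34.6 to 37.3%), 32.3% (interval 31.5 to 33.2%) and 40.8% (interval 39.2 to 42.4%), lowest at the middle distances.

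The larger SMC3 number in SA1-null cells was spread over the genome. On the 19 autosomes the peak number ratio was 2.23 ± 0.0838 (SD over autosomes, which are not replicates), from 1.99 on chromosome 19 to 2.37 on chromosome 13. Of 2649 windows of 1 Mb, 625 held at least 10 wild-type SMC3 peaks. Among these, 623 held more SA1-null than wild-type peaks, 2 held equal numbers and none held fewer. The median ratio was 2, and 90% of windows lay between 1.38 and 2.99. The ratio was lower where wild-type SMC3 was dense, at 1.86 in the 59 windows with 20 or more wild-type peaks and 2.74 in the 714 windows with 1 to 4, a difference that sorting windows by one of the 2 counts produces in part by itself. The 557 windows with no wild-type peak held 394 SA1-null peaks, 1.99% of those called in SA1-null cells alone.

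Single windows differed within wide counting intervals. The highest ratio, 4, was found at chr9:41000001-42000000, with 10 wild-type and 40 SA1-null SMC3 peaks (interval 1.97 to 8.97), and at chr9:63000001-64000000, with 13 and 52 (interval 2.15 to 8.01). At chr7:119000001-120000000 there were 13 and 50. SMC1 was also the higher in SA1-null cells in these 3 windows, with 24 and 52, 28 and 78, and 21 and 58 peaks (wild type first). Equal SMC3 numbers were found at chr2:110000001-111000000, with 10 in each genotype, and chr3:67000001-68000000, with 11 in each. At chr5:44000001-45000000 there were 14 and 15. SMC1 numbers in these 3 were 10 and 14, 11 and 14, and 15 and 22.

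Chromosome X stood apart in what accompanied the SMC3 peaks of SA1-null cells alone. It held 277 wild-type and 703 SA1-null SMC3 peaks, a ratio of 2.54 (interval 2.21 to 2.93). Of the 445 SA1-null-alone peaks on X, 270 lay on wild-type SA1 (60.7%, interval 56.1 to 65.1%), compared with 34.0% ± 1.85 (SD) over the 19 autosomes, whose values ran from 30.9% to 37.4%. SA1-null SMC1 was present at 76.9% of them, against 80.9% ± 1.26 on autosomes. The partnered share of wild-type SMC3 peaks was 93.5% (interval 90.0 to 95.9%) on X and 96.8% ± 0.476 on autosomes, and 10 of the 18 unpartnered ones overlapped a background interval. SMC3 peaks were narrower on X in both genotypes, with medians of 511 and 587 bp against autosome means of 564 and 655 bp. The width ratio in 257 shared pairs on X was 1.27 in the median, against 1.25 on autosomes. The sex of the embryos is not given in the labels, and its part in these values was not tested.

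**Figure D5:**
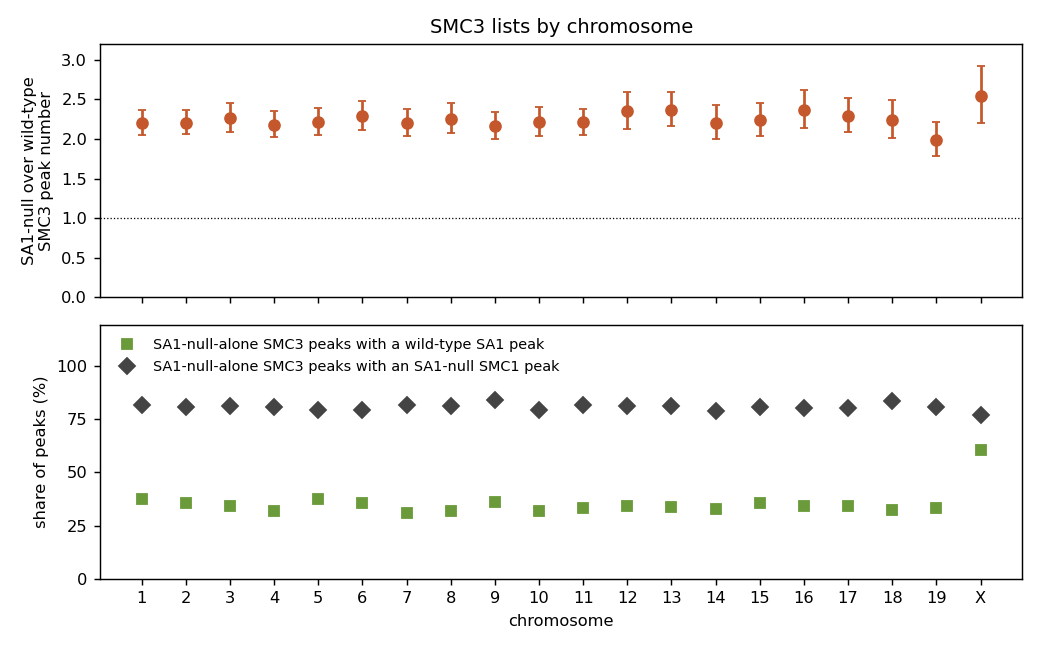
Upper panel, ratio of SA1-null to wild-type SMC3 peak number on each chromosome with exact binomial 95% intervals; the dotted line marks equal numbers. Lower panel, share of SMC3 peaks of SA1-null cells alone that overlap a wild-type SA1 or an SA1-null SMC1 peak, where X is at 60.7% for SA1 and the autosomes lie between 30.9% and 37.4%.

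Set beside SMC1, the SMC3 lists differed in the same direction in number and not in width. The SMC1 ratio was 1.96 (interval 1.93 to 1.99) and the SMC3 ratio 2.24. Partnered shares were 93.4% and 47.8% of wild-type and SA1-null SMC1 peaks, against 96.7% and 43.1% for SMC3. Over all one-to-one pairs the SA1-null peak was the wider one in 52.1% of 21950 SMC1 pairs and in 87.3% of SMC3 pairs. With 1 list per antibody and genotype, whether the genotypes differ more in one subunit than in the other was not tested over samples.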

How the data were processed

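SMC3 ChIP-seq of wild-type and SA1-null MEFs was analysed from interval lists that the authors deposited, each giving only chromosome, start and end and no score. Per the submitters' processing notes, CASAVA 1.7 and the mm9 build were involved. Aligner and peak caller, not given in the sources used here, were not assessed. The deposited list names carry FDR10, read here as a false discovery rate of 10%, no minimum fold and one shared input for both SMC3 and both SMC1 lists. The SA1-null SMC3 list ended beyond the last gene of a GRCm38.p6 table on 9 of 20 chromosomes, so that table was not used for positions, and genes and sequences were not analysed here.

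An overlap of 1 bp counted as shared. Intervals are 95% Wilson (shares) or exact binomial (number ratios). Positions were named by rule: the 5 widest peaks of each genotype alone, the 5 shared pairs with the highest mean width rank, the 5 largest and 5 smallest width ratios, and 3 windows of 1 Mb at each extreme with at least 10 wild-type peaks. The widest peaks that join 3 or more were added after their values were seen. Members, lists and rules were chosen with earlier results of these data known. The tools were numpy 2.4.6, scipy 1.17.1 and matplotlib 3.10.9 under Python 3.11.15. Functions were tested on simulated data, and their counts equalled bedtools 2.31.1 in 20 of 20 comparisons.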

Additional observations from a re-analysis of the deposited data

How the results depend on the processing

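Under 8 alternatives, 57 values were recomputed: 37 stayed within the counting interval of the reported value and 20 moved out of it. Covered length has no counting interval of its own, so the interval of the peak number ratio was scaled to it. An overlap of 50% of the shorter peak gave SA1-null SMC1 at 80.0% of SA1-null-alone SMC3 peaks. Merging peaks closer than 1000 bp gave a number ratio of 2.16, a wild-type partner for 44.6% of SA1-null peaks and SA1 at 35.5% of SA1-null-alone peaks. Counting gaps of up to 500 bp as shared gave 44.1% and 35.5% for the last 2, and 82.1% for SA1-null SMC1. In the widest 50% of each list, the covered-length ratio was 2.80 and partnered shares were 79.8% of wild-type and 35.6% of SA1-null peaks. SA1 was then at 50.9% of SA1-null-alone and 85.9% of wild-type-alone peaks, SMC1 of the same genotype at 93.7% and 94.1%, and 93.8% of pairs were wider in SA1-null cells. Equal list lengths by width gave partnered shares of 59.5% and 59.0%, so that under this setting most SA1-null peaks had a wild-type partner. Both of these settings remove narrow partners by construction. Resizing all SMC3 peaks to 400 bp, an alternative added after the data were seen, gave a partner for 95.9% of wild-type peaks, and among the 644 without one SA1 at 36.3% and wild-type SMC1 at 43.8%. SA1 was at a higher share of SA1-null-alone than of wild-type-alone peaks as reported (34.7% and 29.1%), and this order turned in the widest 50% and with resized peaks (34.5% and 36.3%). The order of same-genotype SMC1 (80.8% and 34.0%) turned in the widest 50%. There, 1569 wild-type peaks had no partner, in place of 506, so most of them had one in the full list. The orders in the widest 50% therefore cannot be read for peaks called in 1 genotype alone. Removing background intervals or chromosome X moved no value out of its interval.

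Leaving out a replicate was not possible with 1 library a side. No paired analysis was possible because each SMC3 group has 1 library. Depth is unknown, so differences in list length and width compare lists and not amounts of bound SMC3.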
